A study of Mus musculus with 4 samples.

Results

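S100a4, S100a6, Ly6a and Cd248 are 4 genes used as markers of fibroblasts and other stromal cells, and they make up 4 of the 4878 genes in the deposited table. They were chosen by name as mesenchymal and stromal markers, with their normalised counts in the eIF1A knockdown and control libraries already known and with no threshold. The difference between those libraries is therefore described here without a test. The 4 libraries are bulk MARS-seq, in which poly(A) RNA is read from its 3′ end. All were made from mouse embryonic fibroblasts, cells grown out of embryos, at passages 5 to 8. In 2 libraries the cells had received a negative control siRNA (Si-Negative control) and in 2 an siRNA named Si-eIF1A (X+18), both delivered with the lipid reagent Lipofectamine RNAimax. The labels used here name no strain, time after transfection or number of embryos. They also do not say whether libraries with the same siRNA are separate cultures, so p-values measure the spread between these libraries, which may be technical. The target, eIF1A, is a translation initiation factor needed for scanning to the start codon, and its own genes were not analysed here.

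The 4 genes encode a pair of related proteins and 2 of other kinds, which share a use as markers. S100a4 (also FSP1, fibroblast-specific protein) and S100a6 (calcyclin) are small cytoplasmic proteins that bind calcium through EF hands and then attach to partners such as myosin and annexins. Ly6a (Sca-1) is a cell surface protein held by a GPI lipid anchor, known from stem and progenitor cells and inducible by interferon. Cd248 (endosialin) is a transmembrane glycoprotein with a C-type lectin domain, made by embryonic and tumour-associated stromal cells and pericytes, and binds matrix proteins. Of 8 other defining fibroblast markers (Thy1, Pdgfra, Pdgfrb, Vim, Col1a1, Col1a2, Dcn and Lum), Vim alone is among the genes analysed here, so the labelled cell type was not checked further. No gene of the table was at 0 in any library, and reads for a marker listed there are therefore no check of the label.

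Summed over the genes analysed, control libraries 1 and 2 held 2182825 and 2595625 recovered reads and knockdown libraries 1 and 2 held 2152331 and 2352111. Of 4605 genes tested, 996 were lower and 733 higher in knockdown libraries, which is 21.6% and 15.9% (limma, Benjamini-Hochberg adjusted p under 0.05). That split depends on scaling, since 603 were lower and 1299 higher when every library was set to the same total. The median log2 difference of all tested genes was −0.01 as deposited and 0.34 at equal totals, so single genes in that setting are to be read against 0.34.

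S100a4 and S100a6 lie close together on chromosome 3. S100a4 (ENSMUSG00000001020.8, GRCm38 chromosome 3, 90603771 to 90606045, plus strand, 3 exons) and S100a6 (ENSMUSG00000001025.8, chromosome 3, 90612882 to 90624181, plus strand, 3 exons in the longest coding transcript) begin 9.11 kb apart in a cluster of S100 genes. Their promoters, the 250 bases before and 50 after each RefSeq start, are shown because only these genes had a matched promoter sequence. They are chr3:90603520-90603819 and chr3:90612644-90612943 of build GRCm38.p6, both on the plus strand, read 5′ to 3′, with a TATAAA or a CACGTG match in capitals.

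S100a4: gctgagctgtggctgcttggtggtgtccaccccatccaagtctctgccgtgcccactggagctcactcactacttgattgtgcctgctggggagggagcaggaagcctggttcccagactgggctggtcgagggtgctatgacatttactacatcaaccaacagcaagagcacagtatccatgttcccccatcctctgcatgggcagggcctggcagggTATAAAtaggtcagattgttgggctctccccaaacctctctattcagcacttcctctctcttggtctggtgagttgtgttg

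S100a6: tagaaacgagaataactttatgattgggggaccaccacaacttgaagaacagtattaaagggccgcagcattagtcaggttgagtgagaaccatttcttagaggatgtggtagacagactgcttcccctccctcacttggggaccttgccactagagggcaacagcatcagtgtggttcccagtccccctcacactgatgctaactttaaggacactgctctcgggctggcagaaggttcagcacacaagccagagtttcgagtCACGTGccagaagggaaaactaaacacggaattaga

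The S100a4 promoter holds TATAAA, the core of a TATA box, 31 bases before the start, and S100a6 has none. The S100a6 sequence holds CACGTG, an E-box, 14 bases after the start, and S100a4 has none. On either strand TATAAA occurred in 13.6% and CACGTG in 7.15% of 32851 mouse promoters of this length. Neither of the 2 sequences contained TGANTCA (AP-1, in 7.81% of promoters), GGGCGG (GC box, 35.7%), GGAATG (TEAD, 14.7%), TTCNNNGAA (GAS, 8.3%) or a CArG box (1.63%). Those matches are letters in these windows and not measured sites. Promoter sequence was matched for 2 of the 4 genes.

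All 4 genes were lower after eIF1A knockdown. In each, both knockdown libraries lay below both control libraries, an arrangement also found in 35.5% of the 4605 genes. S100a4 had 680 and 689 normalised counts in controls 1 and 2 and 104 and 101 in knockdowns 1 and 2. Its libraries agreed closely within each group and the groups lay far apart. The group means were 685 ± 6.34 and 102 ± 2.55 (SD, n = 2 each), and the difference on the log2(normalised count + 1) scale was −2.73 with a standard error of 0.22, or 6.64-fold. In these bulk libraries fewer cells with a transcript and less of it per cell cannot be told apart. S100a6 had 4824 and 5322 normalised counts in controls and 2144 and 1914 in knockdowns. Here the knockdown libraries kept a larger share of the control level than for S100a4. The means were 5073 ± 352 and 2029 ± 163 (SD, n = 2 each), a log2 difference of −1.32 with a standard error of 0.22, or 2.5-fold.

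Ly6a, at chromosome 15, 74994877 to 74998031, minus strand (ENSMUSG00000075602.10, 4 exons), had 178 and 139 normalised counts in controls and 66.2 and 43.5 in knockdowns. Control and knockdown libraries were separate but the libraries within each spread more than for the S100 genes. The means were 158 ± 27.8 and 54.8 ± 16.1 (SD, n = 2 each), a log2 difference of −1.53 with a standard error of 0.29, or 2.89-fold. Cd248, a gene of 1 exon at chromosome 19, 5068078 to 5070682, plus strand (ENSMUSG00000056481.7), had 1238 and 886 normalised counts in controls and 71.0 and 40.8 in knockdowns. It differed most of the 4, and its lowest control was 12.5 times its highest knockdown library. The means were 1062 ± 249 and 55.9 ± 21.4 (SD, n = 2 each), a log2 difference of −4.26 with a standard error of 0.27, or 19.1-fold.

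**Figure D1:**
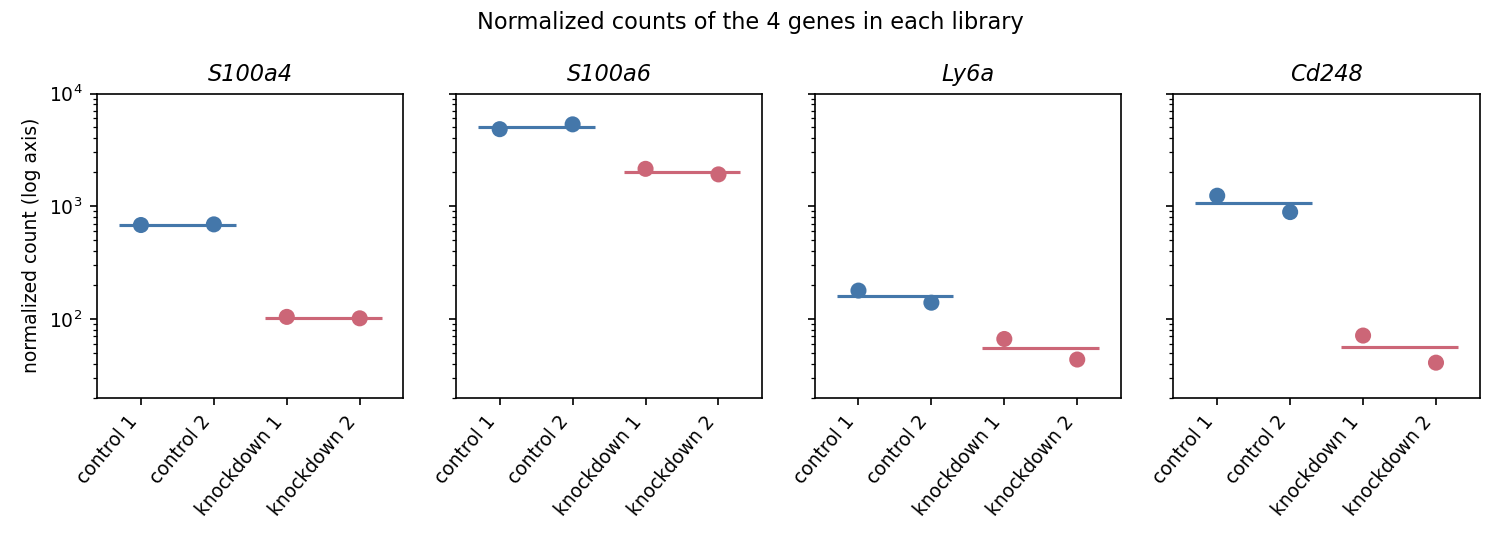
Normalised counts (log axis) of S100a4, S100a6, Ly6a and Cd248, as points for single control (blue, n = 2) and eIF1A knockdown (red, n = 2) libraries, with a line at each group mean. In every panel both red points lie below both blue points, from means of 1062 to 55.9 for Cd248 and of 5073 to 2029 for S100a6.

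Counting error was small beside these differences. The rarest of the 4, Ly6a, rested on 181 and 171 reads in controls and 82 and 64 in knockdowns. Its ratio of summed reads, scaled to the libraries, was 2.91 with an exact (Clopper-Pearson) 95% counting interval of 2.39 to 3.55. Cd248 had 1258 and 1092 reads in controls and 88 and 60 in knockdowns, a ratio of 19.1 (16.2 to 22.8). S100a4 gave 6.7 (5.9 to 7.65) and S100a6, with 2656 to 6557 reads a library, gave 2.52 (2.44 to 2.61). These intervals cover counting error only, and reads need not be independent molecules.

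The spread between replicates differed among the 4. The log2 gap between the 2 controls was 0.02 for S100a4 and 0.14 for S100a6, against medians of 0.26 and 0.23 over tested genes of similar level. It was 0.36 for Ly6a and 0.48 for Cd248, against 0.31 and 0.27. Between the knockdown libraries the gaps were 0.05, 0.16, 0.60 and 0.79 in the same order, against medians of 0.20, 0.22, 0.25 and 0.20. Similar level was judged within 1 on the mean log2 value over all 4 libraries, and not within each group. Cd248, with means of 1062 in controls and 55.9 in knockdowns, therefore has no match of like abundance in either group. Against the genes so chosen the S100 genes were tighter and Ly6a and Cd248 looser. For each of the 4 the difference between groups exceeded both gaps.

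Among all 4605 tested genes ordered from the lowest difference, Cd248 stood at place 7, S100a4 at 47, Ly6a at 248 and S100a6 at 372. The lowest 1% of genes began at −2.73 and the lowest 5% at −1.59. The plot of differences over all tested genes shows Cd248 in the sparse left tail and Ly6a and S100a6 on the shoulder of the distribution.

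**Figure D2:**
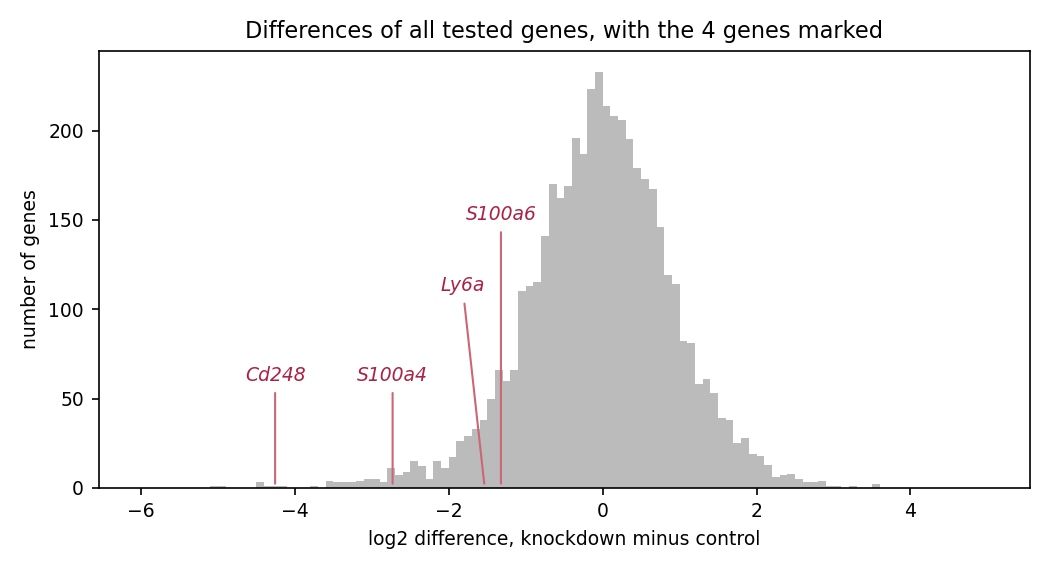
Histogram of the log2 difference (knockdown minus control, horizontal axis) over 4605 tested genes (number of genes, vertical axis), with lines at the 4 genes. Cd248 at −4.26 and S100a4 at −2.73 lie in the left tail, and Ly6a at −1.53 and S100a6 at −1.32 closer to the bulk of genes.

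Ratios of reads within a library do not depend on scaling between libraries. S100a4 had 14.1 and 12.9 reads per 100 S100a6 reads in controls and 4.86 and 5.25 in knockdowns. S100a4 and S100a6 were therefore not lower to the same extent. Cd248 had 25.7 and 16.7 reads per 100 S100a6 reads in controls and 3.31 and 2.13 in knockdowns, again with no overlap. Ly6a had 3.69 and 2.61 reads per 100 S100a6 reads in controls and 3.09 and 2.27 in knockdowns. In that ratio the groups overlapped, so no difference between Ly6a and S100a6 in size of response was seen beyond the spread. Cd248 relative to Ly6a went from 695 and 639 reads per 100 to 107 and 93.8.

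**Figure D3:**
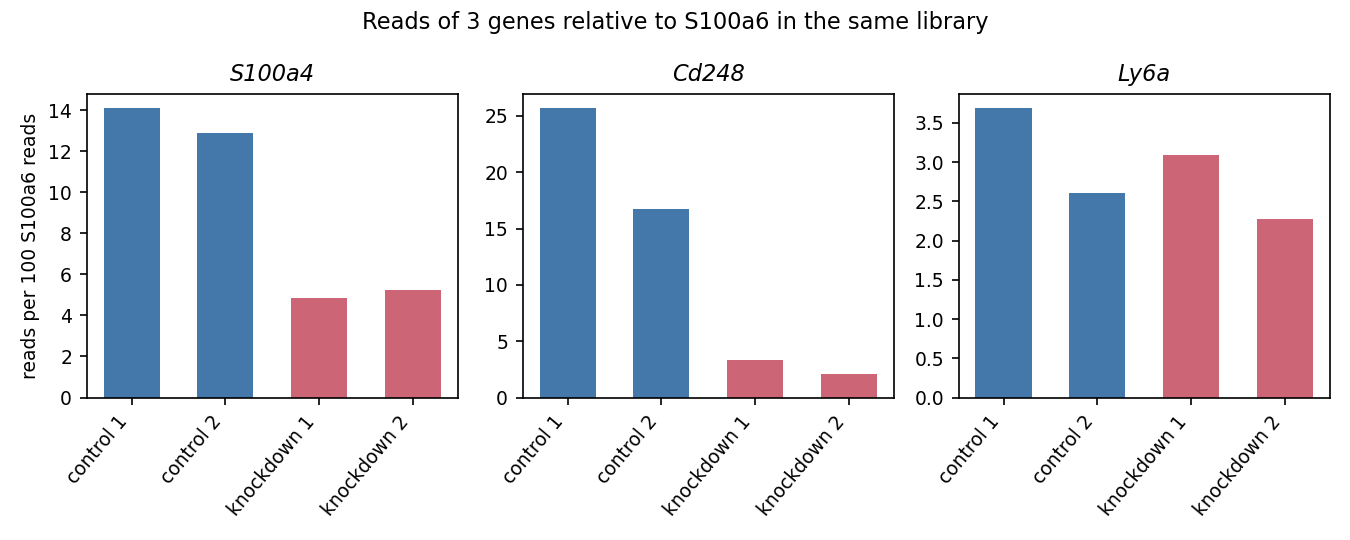
Reads of S100a4, Cd248 and Ly6a per 100 reads of S100a6 in the same library (vertical axes, each from 0), with a bar for each control (blue) and knockdown (red) library. The groups are apart for S100a4 (12.9 to 14.1 against 4.86 to 5.25) and Cd248 and overlap for Ly6a.

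Composition and shared sequence were measured for each gene. GC content of the last 500 transcript bases, where 3′ reads fall, was 49.2% for S100a4, 53.0% for S100a6, 49.4% for Ly6a and 57.0% for Cd248, all above the median of 45.4% over 4480 tested genes. With a loess trend on GC content removed, an alternative added after the data were seen, the log2 differences were −2.52, −0.92, −1.31 and −3.71. Each was nearer to 0 and still negative. Of the 40-base windows at the S100a4 3′ end, 57.3% also occur in Gm42674, a predicted gene on the same strand that overlaps it. For Ly6a, 8.03% of windows occur in Ly6c1, Ly6c2, Ly6i or I830127L07Rik. No window of S100a6 or Cd248 was shared with another gene's transcript. The S100a4 and Ly6a counts are uncertain to that extent.

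On a list of S100 family members, annexins and other targets, 22 of 40 genes were tested. Of these 7 fell (31.8%, against 21.6% of all tested genes) and 3 rose (13.6%, against 15.9%), and the median log2 difference was −0.39 against −0.01 over all tested genes. S100a13, another gene of the chromosome 3 cluster, had 195 and 260 normalised counts in controls and 75.9 and 58.4 in knockdowns. It fell 3.34-fold (limma, adjusted p = 6.03e-05). S100a10, the partner of annexin A2, had 121 and 171 in controls and 166 and 124 in knockdowns. Its groups overlapped, and S100a10 did not pass (adjusted p = 0.997).

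Annexins bind membrane phospholipids when calcium is present, and several are known partners of S100 proteins. Of 7 annexin genes tested 4 fell (57.1%, against 21.6% of all tested genes) and 1 rose (14.3%, near the 15.9% of all). All 7 are part of the list above, whose 7 genes that fell are those 4 annexins, S100a13, Calm3 and Capns1. Without the annexins, the share of that list that fell was near that of all tested genes. Anxa6 had 3112 and 3295 normalised counts in controls and 580 and 539 in knockdowns, which is 5.72-fold lower (limma, adjusted p = 4.13e-08). Anxa2 and Anxa5 fell 2.81-fold and 2.59-fold, and Anxa4, which overlaps a gene on the other strand, fell 2.03-fold, with its call lost at equal library totals (adjusted p = 0.0739). Anxa3 went the other way, from 122 ± 11.7 to 303 ± 37.4 (SD, n = 2; 2.46-fold, limma adjusted p = 3.18e-04). Anxa1 and Anxa7 did not pass, with adjusted p of 0.339 and 0.843.

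Calm3, one of the genes that encode calmodulin, fell 3.04-fold, and Capns1, the small subunit of the calcium-dependent protease calpain, fell with a log2 difference of −1.12. The other genes that rose were named after their values were seen. Cacybp, which encodes the calcyclin-binding protein, a partner of S100a6, had 26 and 67 reads in controls and 129 and 206 in knockdowns (3.17-fold, limma adjusted p = 9.78e-04). Sugt1, a co-chaperone that also binds S100a6, rose 2.56-fold, a call lost without control replicate 1 (adjusted p = 0.249, log2 difference 0.59) and without knockdown replicate 1 (0.209, 0.92). Its fold ran from 1.5 without control replicate 1 to 4.35 without control replicate 2. Myh9, the nonmuscle myosin heavy chain bound by S100a4, had a log2 difference of −0.47 and did not pass (adjusted p = 0.16).

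Ly6e, a GPI-anchored relative of Ly6a, was the other gene of that family tested. It had 3033 and 2640 normalised counts in controls and 1436 and 713 in knockdowns. Ly6e fell 2.79-fold (limma, adjusted p = 2.46e-04), and the 2 knockdown libraries differed from each other as they did for Ly6a. Ly6e starts 43 kb from Ly6a and was the only tested neighbour within 500 kb of it. The list of Ly6 and other GPI-anchored proteins and of genes that build the GPI anchor had 17 of 66 genes tested. Of these 7 fell (41.2%, against 21.6% of all tested genes) and 3 rose (17.6%, near the 15.9% of all), with a median of −0.47. Its 8 tested genes for the anchored proteins themselves had 5 that fell (62.5%) and 1 that rose (12.5%), with a median of −0.76. Among those that fell, Gas1, Prnp and Cd24a lost their calls at equal library totals and in limma without a trend. Cdh13, a cadherin without a cytoplasmic tail, fell 2.63-fold from 370 ± 104 to 139 ± 36.8 (SD, n = 2). The member that rose was Bst2, or tetherin, an interferon-induced protein that holds budding virus at the membrane, from 1247 and 1204 in controls to 3181 and 2180 in knockdowns (2.15-fold, limma adjusted p = 8.28e-04).

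Because Ly6a is known as an interferon-inducible gene, a list of interferon response genes was set beside it. Of 30 tested 10 rose (33.3%, against 15.9% of all tested genes) and 3 fell, with a median of 0.39, so most called members moved opposite to Ly6a. Usp18, which removes the ubiquitin-like ISG15 from proteins, had 59.1 and 69.8 normalised counts in controls and 255 and 295 in knockdowns (4.23-fold higher, limma adjusted p = 4.73e-06). Dhx58, an RNA sensor, rose 2.29-fold. H2-D1, a class I antigen-presenting chain that shares 15.8% of its 3′ windows with other genes, rose 2.57-fold. The members that fell were Ly6e, Socs3 and Psme1, the last of them with an adjusted p of 0.0496 that was missed in most other settings. With equal library totals 16 of the 30 members were higher, against 1299 of all 4605 tested genes, and Ly6e was the only member called lower. The median of the list was then 0.74, against 0.34 over all tested genes.

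Other fibroblast and stromal markers were lower or did not pass. Of 40 listed, 14 were tested, of which 6 fell (42.9%, against 21.6% of all tested genes) and 8 did not pass, and the median was −0.51. Cd81, a tetraspanin, had 1722 and 2026 normalised counts in controls and 674 and 736 in knockdowns (2.65-fold lower, limma adjusted p = 4.12e-05). P4hb, a protein disulfide isomerase needed for collagen assembly, fell 2.28-fold, a call lost under quantile normalisation (adjusted p = 0.108). Vim, the intermediate filament protein vimentin, had 20136 and 15531 in controls and 8437 and 10504 in knockdowns (1.88-fold lower, limma adjusted p = 0.0105). Fbln2, a matrix glycoprotein, fell 1.64-fold.

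Further members of that list did not pass. Cd34, a sialomucin of progenitor cells, had a log2 difference of −0.02 (adjusted p = 0.967), Fn1, fibronectin, −0.08 (0.845) and Cd44, the hyaluronan receptor, 0.40 (0.355). Vcam1, an adhesion molecule, had 0.85 (0.129) and was called higher without control replicate 1 and with equal library totals. Without control replicate 1 or without knockdown replicate 1, neither Vim (limma adjusted p of 0.175 and 0.0542) nor Fbln2 (0.0804 and 0.143) was called. The members called lower numbered 2 of 14 with equal library totals, where 603 of all 4605 tested genes were lower. Under quantile normalisation they numbered 1 of 14, against 806 of 4605, and in limma without a trend 2 of 14, against 655 of 4605. In these settings the share of the list was near or under that of all tested genes.

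Proteins that bind or act with Cd248 were examined next, together with its relatives and PDGF signalling, which works in the same stromal cells. Of 28 listed, 12 were tested, of which 5 fell (41.7%, against 21.6% of all tested genes) and 7 did not pass. The median was −0.43 against −0.01 over all tested genes. Mmp2, a gelatinase, had 1073 and 939 normalised counts in controls and 249 and 377 in knockdowns (3.27-fold lower, limma adjusted p = 1.4e-05). Shc1, an adaptor of receptor tyrosine kinases, fell 2.25-fold. Mmp14, which activates Mmp2 at the cell surface, fell 1.68-fold and Col4a2, a basement membrane collagen chain, 1.71-fold. The Col4a2 call was missed without control replicate 1 (limma adjusted p = 0.156) or knockdown replicate 2 (0.0843), and that of Mmp14, with 18.9% of its 3′ windows in other genes, without the latter (0.107). Fn1, given above, and Col4a1, whose product Cd248 can bind, did not pass (Col4a1 log2 difference −0.53, adjusted p = 0.121).

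Of 21 transcription regulators of mesenchymal cells tested, 5 fell and 1 rose, with a median of −0.30. The share that fell, 23.8%, was near the 21.6% of all tested genes and is no result about the list. The rise was Jun, a subunit of AP-1, from 28.8 ± 1.75 normalised counts in controls to 147 ± 21.3 in knockdowns (SD, n = 2; 4.93-fold, limma adjusted p = 1.05e-05). Tead2, a DNA-binding partner of YAP, fell 2.54-fold from 3052 ± 22.9 to 1202 ± 117 (SD, n = 2), and Id1, an inhibitor of helix-loop-helix factors, fell 2.37-fold. Jund, another AP-1 subunit, fell 2.1-fold, a call lost with the GC trend removed (adjusted p = 0.114). Twist2 and Prrx1, regulators of the mesenchymal state, had log2 differences of 0.01 and −0.10 and did not pass (adjusted p of 0.98 and 0.82).

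**Figure D4:**
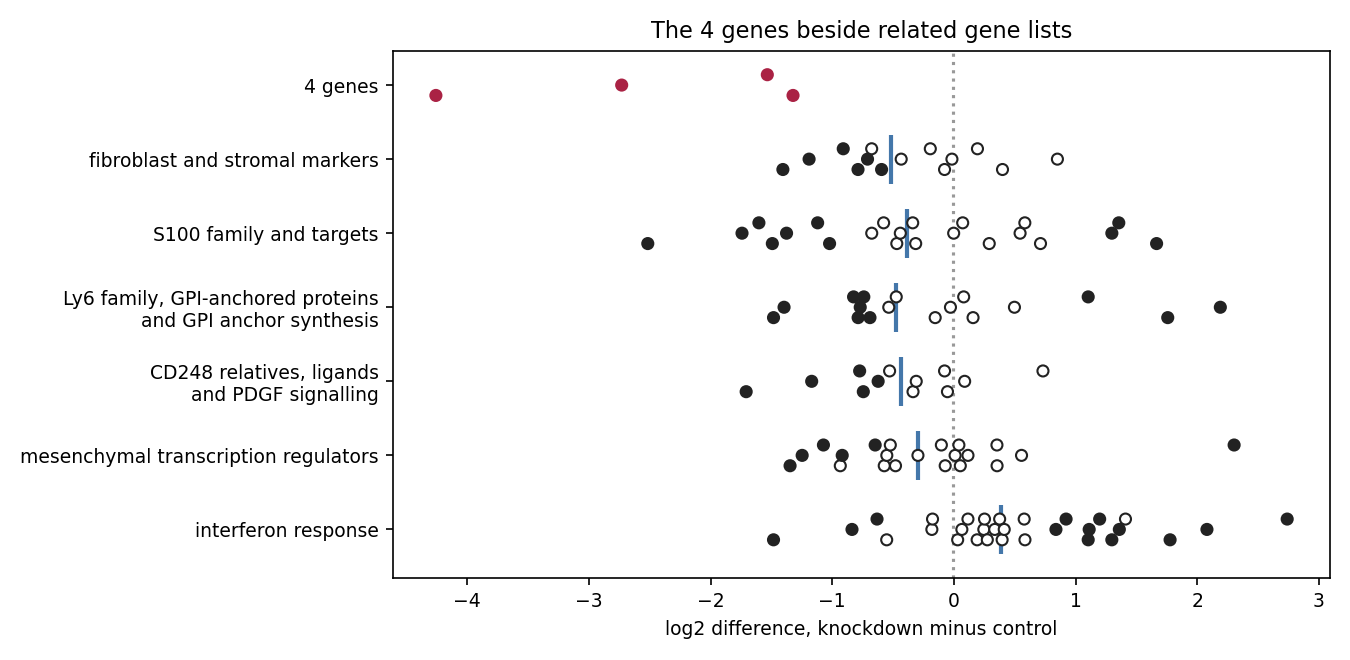
Log2 difference (knockdown minus control, horizontal axis) of the 4 genes (red) and of the tested genes of 6 related lists (filled, limma adjusted p under 0.05; open, not called), with a blue line at each list's median and a dotted line at the median of all tested genes. Cd248 and S100a4 lie further left than every gene of the lists, and the interferon list has most of its called genes to the right.

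Markers of other cell types were looked for in the same libraries. No listed marker of leukocytes, endothelium, epithelium, skeletal muscle or adipocytes was among the genes analysed here, which gives no level for them. Of 10 pericyte and smooth muscle markers 3 were tested and 2 fell (66.7%, against 21.6% of all tested genes). Mcam, the other marker tested, had a log2 difference of −0.43 and did not pass (limma adjusted p = 0.205). Notch3 had 576 and 291 normalised counts in controls and 67.8 and 40.8 in knockdowns (7.65-fold lower, limma adjusted p = 8.47e-07), and Cspg4, or NG2, fell 2.52-fold with a call lost when the GC trend was removed (adjusted p = 0.0943). Their list summed to 665 to 1101 in controls and 264 to 303 in knockdowns. Cd248 marks pericytes too, and the part of such cells in its difference was not tested. Of 8 neural markers 3 were tested, with a sum of 269 to 272 in controls and 155 to 183 in knockdowns. Nes, nestin, fell 1.68-fold and lost its call without knockdown replicate 1 (adjusted p = 0.127) or 2 (0.0603). The only chondrocyte and osteoblast marker tested, Runx2, did not pass (adjusted p = 0.924).

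Genes around the 4 loci were examined within 500 kb of each start, a window chosen after the data were seen. Around S100a4 and S100a6 the same 7 other genes were tested. S100a13 and Slc27a3 fell, the latter with a log2 difference of −1.21, and 5 did not pass. The median was 0.21. A count of 2 lower among 7 is near the 21.6% of all tested genes and is no result about the locus. Around Cd248 18 genes were tested, of which 9 fell and 9 did not pass, and the median was −0.81. Over all tested genes 21.6% were lower and the median was −0.01. Rab1b, among those that fell, lost its call with the GC trend removed (limma adjusted p = 0.185) and under quantile normalisation (0.0552). The nearest called gene on either side was B4gat1, a glycosyltransferase gene, at 2.35-fold lower and Yif1a, a gene of vesicle transport, at 2.19-fold lower (both chosen after their values were seen). Brms1, which lies between B4gat1 and Cd248, had a log2 difference of −0.17 and did not pass (adjusted p = 0.608).

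The genes whose profile over the 4 libraries lay closest to each member were found by Euclidean distance between centred log2 values, among 3964 other genes with a mean of at least 20. For S100a4 they were Rasa4 (0.17), Prkcdbp (0.18), Pfkl (0.19) and Gsn (0.21), against a median distance of 2.72. For S100a6 they were Car5b (0.05), Mtch1 (0.07), Plat (0.08) and Apeh (0.10), with a median of 1.38. Ly6a lay closest to Abhd4 (0.09), Casp9 (0.16), Inpp5k (0.16) and Itfg3 (0.19), and Cd248 to Ndrg2 (0.50), Lppr3 (0.50), Atp1b2 (0.56) and Cbr2 (0.64). No member was among the 4 closest genes of another. The closest pair among them was S100a6 and Ly6a at 0.51, and the most distant was S100a6 and Cd248. Leaving out knockdown replicate 2 brought Lppr3 from 21.7-fold lower to 13.4-fold and Atp1b2 from 13.9-fold to 9.26-fold, and leaving out knockdown replicate 1 gave 35-fold and 20.9-fold.

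Across 18 other processing settings each of the 4 differences stayed negative. S100a4 ran from 5.21-fold to 6.77-fold lower, S100a6 from 1.88-fold to 2.64-fold, Ly6a from 2.28-fold to 3.56-fold and Cd248 from 13.1-fold to 25.1-fold. The largest value of each gene came without knockdown replicate 1. No setting moved a fold of the 4 by over 1.5 times.

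**Figure D5:**
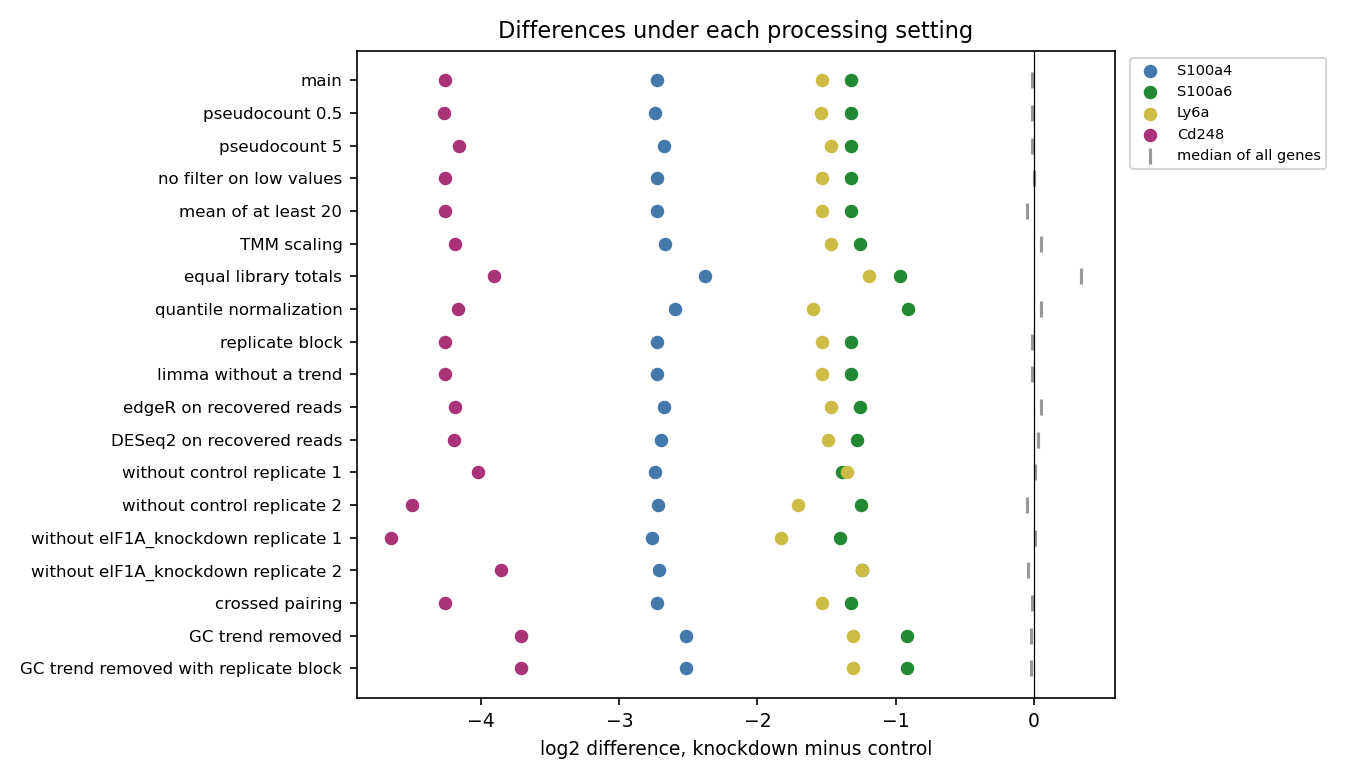
Log2 difference (knockdown minus control, horizontal axis) of the 4 genes and the median of all tested genes (grey bars) under the main setting and 18 others (vertical axis). Every coloured point lies left of 0, and Cd248 ranges from −4.65 to −3.71 while S100a4 ranges from −2.76 to −2.38.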

How the data were processed

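The 2 control and 2 knockdown libraries were grouped and numbered from their titles, and table columns were matched to them by name. The deposited values are a signal called normalised counts in the name of the authors' table. Build mm10, STAR, HTSeq, DESeq2, cutadapt 1.8.3 and bcl2fastq 2.17.1.14 stand in the submitters' processing notes, without roles. No source used here gives the factors, the use of strand or molecular identifiers, or the choice of genes. Every value was a whole multiple of its library's lowest value (100% within 0.01 read), which gave reads per gene, with medians of 120, 139, 143 and 173. No gene was at 0. Replicates differed by more than independent reads would, with a chi-square over its degrees of freedom of 16.5 in controls and 13.7 in knockdowns. Reads need not be independent molecules, so these values do not measure variation beyond sampling.

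Genes were tested with limma-trend (limma 3.58.1, R 4.3.3) on log2(value + 1), for those with a mean of at least 5 (4605 tested, 273 under the filter), with Benjamini-Hochberg adjustment over all tested genes and a threshold of 0.05. It was tested on simulated data. Alternatives used the recovered reads with DESeq2 1.42.0 (620 genes higher, 828 lower) and edgeR 4.0.16 (807 higher, 909 lower), other scalings, filters and pseudocounts, and each library left out. The 4 genes and the lists were chosen with earlier results of these data known. Besides the 4, the genes named were the 4 of smallest p called in each list, all S100, annexin and Ly6 genes, the 4 closest profiles of each gene and cell type markers. Every other gene named, such as Capns1, Cacybp, Sugt1, Myh9, the neighbouring genes, genes of the lists that did not pass and further Pig genes, was chosen after its values were seen. Loci and transcripts came from GENCODE M21 (4741 of 4878 symbols matched) and promoters from RefSeq, GRCm38.p6.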

Additional observations from a re-analysis of the deposited data

How the results depend on the processing

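With equal library totals 1299 genes were higher and 603 lower, and limma without a trend called 655 lower. One library left out gave 438 (without knockdown replicate 2) to 758 higher. The log2 difference of S100a4 was −2.68 at a pseudocount of 5 and with edgeR, −2.67 with TMM scaling, −2.38 at equal library totals, −2.60 under quantile normalisation and −2.52 with the GC trend removed, with or without the block. That of S100a6 was −0.97 at equal totals, −0.91 under quantile normalisation and −0.92 with the GC trend removed, with or without the block. These exceed the small spread between replicates of both genes and turn no direction. Ly6a and Cd248 moved by less than their spread.

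Of the fibroblast and stromal markers, 1 was higher and 2 lower at equal totals, 1 lower under quantile normalisation and 2 lower without a trend, and 0 or 1 were higher with a library left out. Of the S100 family and targets, 11 were lower with the GC trend removed and the block. In the Ly6 and GPI list 2 were lower at equal totals and 2 without a trend, and 2 (without knockdown replicate 2) to 8 with a library left out. In the Cd248 and PDGF list 1 was higher at equal totals, 2 were lower at equal totals, 2 under quantile normalisation and 2 without a trend, and with a library left out 0 or 1 were higher and 2 (without knockdown replicate 2) to 6 lower. Of mesenchymal regulators 3 were lower with the GC trend removed, or 2 with the block. In the interferon list 16 were higher and 1 lower at equal totals, and 1 (without knockdown replicate 2) to 4 were lower with a library left out. The lists had 14, 22, 17, 12, 21 and 30 genes tested, in that order, with 19 regulators when GC was removed. Of all 4605 genes 603 were lower and 1299 higher at equal totals. Lower were 806 under quantile normalisation, 655 without a trend and, of 4480, 708 with the GC trend removed (703 with the block). The fibroblast, Ly6 and Cd248 shares lower at equal totals and without a trend were near or under these. Equal totals raise knockdown values against controls, and the cause of the other changes was not tested.

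The replicate numbers are shared by title only. Deviations of same-numbered libraries correlated at −0.13 over genes, so the numbers were not taken as pairs. With the replicate number as a block 641 genes were higher and 918 lower, and with crossed pairing, added after the data were seen, 891 and 1154. The differences of the 4 genes are the same in these fits by construction. The 2 libraries of each group limit every value here, and a lone library is assumed to vary like the others.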

Other observations

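Genes that build the GPI anchor, the lipid that holds Ly6a, Ly6e and Bst2 at the cell surface, were called at about the rate of all genes. Of 9 tested 2 rose and 2 fell (22.2% each, against 15.9% and 21.6% of all tested genes), with a median log2 difference of 0.08. Pigk, the catalytic subunit of the transamidase that attaches the anchor, rose from 34.2 ± 18.5 to 116 ± 54.2 normalised counts (SD, n = 2; 3.38-fold, limma adjusted p = 0.00161). Pigf, which acts in adding ethanolamine phosphate, had 11 and 2 reads in controls and 35 and 31 in knockdowns, and its call was lost without control replicate 2 (adjusted p = 0.108) and without knockdown replicate 1 (0.0975). Pigu and Pigs, other transamidase subunits, fell 1.71-fold and 1.61-fold. Pigu lost its call without knockdown replicate 1 (0.0713) or 2 (0.12), and Pigs without control replicate 1 (0.0907) or knockdown replicate 2 (0.12). Gpaa1 and Pigt, also transamidase subunits, did not pass (adjusted p of 0.0947 and 0.871). Pigf, Pigk and Pigs overlap genes on the other strand, whose reads cannot be told apart without strand. Pigf, Pigs and Pigu were named after their values were seen.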
